A study of Drosophila melanogaster with 24 samples.

Results

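S2-NFull/S2 is a mix of 2 populations of Drosophila S2 cells, one that expresses NFull, read here as full-length Notch, and one of plain S2 cells, with no cells that were given a ligand. It was set against S2/S2, plain cells mixed with plain cells. The mixes were taken from the titles: 3 of the 24 arrays bore the title S2-NFull/S2 and 3 the title S2/S2. Of the 3 S2-NFull/S2 arrays, array 1 and array 2 shared the title of replicate 1 and were averaged into 1 sample, and the third was replicate 3, so the comparison rested on 2 samples against 3.

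Notch is a receptor that is cut when a neighbouring cell presents Delta or Serrate, and its intracellular part then enters the nucleus and, with the DNA-binding protein Su(H), turns on genes. Its best known targets in flies are the genes of the Enhancer of split complex, E(spl), which encode basic helix-loop-helix repressors and small proteins of the Bearded family. S2 cells are a hemocyte-like line derived from fly embryos that shows little Notch of its own, which is why added Notch and added Delta have long been used in it to study contact between cells.

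The study mixed populations of S2 cells for 45 minutes in 8 combinations and measured RNA on arrays with 1 signal per probe set. The other mixes used here held Dl cells, with Delta, DlDI cells, with Delta that lacks its intracellular domain, or NDCterm cells, with another form of Notch that the labels do not spell out. Each replicate was pooled from 2 independent samples. The sources name no promoter, no inducing agent, no ratio of the populations and no clone for any line, and the labels do not say whether array 2 was a repeat of the same RNA, or whether replicates came from separate cultures, so p-values measure the spread between these samples only.

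Each RNA sample held both populations at once. More cells of a population and more RNA per cell cannot be told apart, and neither can a trait of the NFull line and an effect of its Notch. No probe set was paired with Notch alone, and Notch itself is not analysed here. Signals of Delta were 6.60, 18.4 and 3.35 on the S2-NFull/S2 arrays, against 11070 to 12968 in the 3 samples of S2/S2-Dl. CG6067, which read 205 and 299.9 in S2/S2-DlDI, was at 2.86 or below on all 6 arrays, so the arrays of both mixes lacked these marks of the ligand lines.

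The labels named epidermal tissue of late embryos as the source, and the titles named S2 cells. In S2/S2, 8 of 12 plasmatocyte markers, genes of the phagocytes among fly blood cells, had a mean signal above 100, against 2 of 11 epidermal markers, and all 8 muscle and all 6 fat body markers measured were under 32 in both mixes. The trimmed mean was 150.004 or 150.005 on every array, and the median signal was 12.4, 11.9 and 10.9 in S2-NFull/S2 and 11.6, 20.9 and 11.2 in S2/S2. S2/S2 replicate 2, with 20.9, stood apart. The ratio of the 3′ to the 5′ probe set of the actin control, a sign of RNA quality, was 2.48, 3.93 and 2.68 in S2-NFull/S2 and 1.90 to 2.53 in S2/S2. Array 2 of replicate 1 was the highest of the 6 by this ratio. By the same ratio of the Gapdh control, 2.06, 2.86 and 2.51 in S2-NFull/S2 and 2.71, 2.77 and 2.97 in S2/S2, it was not, and the part of RNA quality in the results was not tested.

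The comparison of S2-NFull/S2 with S2/S2 asked which RNAs the NFull population adds or removes where no cell with added ligand is present. RNAs of 2 feedback inhibitors of receptor tyrosine kinases, aos and sty, rose together with the troponin gene TpnC4, the ribosomal protein gene RpS10a, the teneurin gene Ten-m and 3 genes of the E(spl) complex. Falls were few and small. At a Benjamini-Hochberg adjusted p below 0.05 in limma, 116 of 18769 probe sets passed (0.618%), 106 higher in S2-NFull/S2 (0.565%) and 10 lower (0.0533%). The unadjusted counts at the same threshold were 818 and 902. With 0.618% of all probe sets called, a short gene list most often holds no call. A count of 0 in a list below is therefore a description only.

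The 106 higher probe sets stood for 87 genes, and 16 of them named no gene or several. Their median log2 change was 1.05, 58 changed by more than 2-fold and 11 by more than 4-fold, on the scale of log2(signal + 32) used for every change given here. The 10 lower probe sets had a median of -0.74 and none changed by 2-fold. Plain S2 cells were part of both mixes, so an RNA that NFull cells lack still gave signal from the plain cells. This limits the size of a fall and not that of a rise. The median over all probe sets was -0.05. In S2/S2, 31 of the 106 had a mean signal under 32, and for these the size of the change depends on the offset of 32. For all 116 called probe sets, the 3 S2-NFull/S2 arrays and the 3 S2/S2 arrays did not overlap, and the same held for 2540 of all 18769 probe sets (13.5%). Since the same values made the calls, this is a description, also where it is given for single called genes below.

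**Figure D1:**
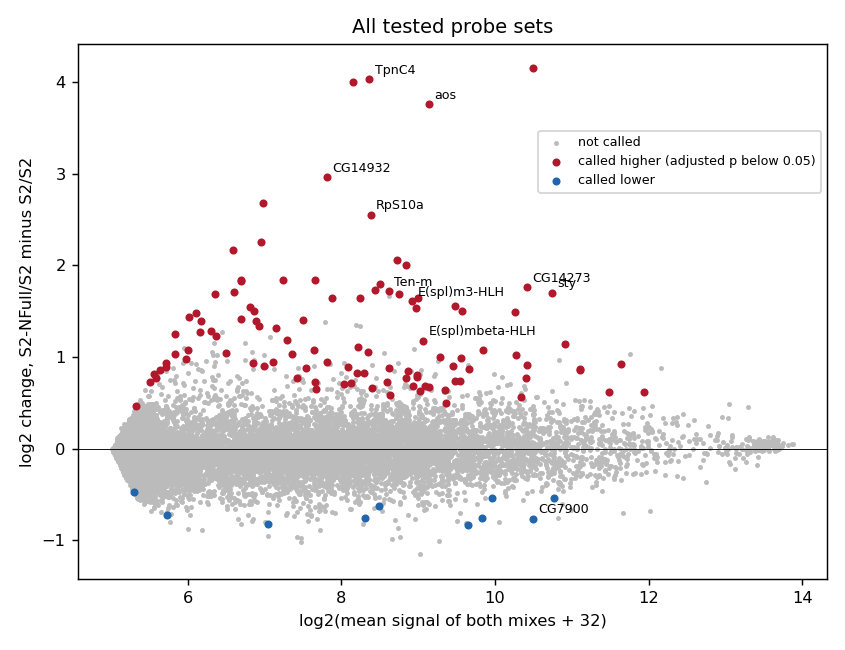
Log2 change of each tested probe set, S2-NFull/S2 minus S2/S2, against the log2 of its mean signal over both mixes plus 32. Red points are the 106 probe sets called higher and blue points the 10 called lower, and the named rises reach 4.03 (TpnC4) while no named fall goes below -0.83.

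The first group of rises is 2 inhibitors of signalling by the EGF receptor. Argos, encoded by aos, is a secreted protein that binds the receptor's ligand Spitz, and sprouty, encoded by sty, acts inside the cell on receptor tyrosine kinases. Signals of aos were 1189.6 and 687 on arrays 1 and 2 of replicate 1 and 1087 in replicate 3, against 12.5, 57.6 and 77.0 in S2/S2 replicates 1, 2 and 3. The lowest S2-NFull/S2 array was thus far above the highest S2/S2 array, and the rise was 3.76 ± 0.35 (log2, SE; adjusted p = 4.45e-05).

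Signals of sty were 3263, 2501 and 2281 in S2-NFull/S2 and 669, 764 and 867 in S2/S2. All 3 arrays were above all 3 controls, with a rise of 1.70 ± 0.14 (SE; adjusted p = 1.94e-05). A second probe set of sty rose by 1.49 ± 0.20 (adjusted p = 0.0018). In S2/S2-Dl, which held no NFull cells, sty also read above S2/S2, at 1408, 1703 and 1720. Of the 15 measured genes of the EGFR and Ras pathway list, aos and sty were the 2 that passed, none fell, and the median change of the list was 0.12, against -0.05 for all probe sets.

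TpnC4 had the largest rise among the genes named by rule. It encodes a troponin C, the calcium-binding subunit of the complex that regulates muscle contraction. Its signals were 690.3, 620.5 and 520.4 in S2-NFull/S2 and 14.8, 3.18 and 0.80 in S2/S2, where all 3 arrays were below the offset. The rise was 4.03 ± 0.20 (SE; adjusted p = 3.31e-08). The other 2 measured troponin C genes did not pass, and no muscle marker of 8 measured passed either: their summed signal was 33.0 to 69.7 in S2-NFull/S2 and 42.6 to 83.9 in S2/S2.

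RpS10a encodes one of the paralogues of ribosomal protein S10 and is known in flies for its expression in germ cells. Its signals were 482, 550.4 and 556 in S2-NFull/S2 and 88.9, 65.5 and 44.8 in S2/S2, and it rose by 2.55 ± 0.18 (SE; adjusted p = 3.76e-06). It was the only one of 12 measured ribosomal protein paralogues that passed. None of 12 other cytoplasmic ribosomal protein genes and none of 9 germline markers passed, against 0.618% of all probe sets. The summed signal of the germline markers was 1324 to 1609.8 in S2-NFull/S2 and 1245 to 1488 in S2/S2.

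Ten-m encodes a teneurin, a large transmembrane protein that joins cells through its extracellular part. Its signals were 634, 589.8 and 523 in S2-NFull/S2 and 188, 126 and 142 in S2/S2. The 3 arrays lay above every control, and the rise was 1.71 ± 0.15 (SE; adjusted p = 2.09e-05). The other 11 measured genes of actin and adhesion did not pass.

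The remaining 10 of the 15 largest rises were genes known by number only. Signals of CG14932 were 341, 449 and 339 against 17.1, 16.3 and 23.4, a rise of 2.96 ± 0.19 (SE; adjusted p = 8.58e-07). Signals of CG43064 were 211, 221 and 159 against 1.03, 3.45 and 1.12, a rise of 2.68 ± 0.21 (adjusted p = 1.08e-05). In both genes every S2/S2 array was below 32.

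CG5568 (2.25), CG12493 (2.00), CG8349 (1.84), CG12926 (1.83), CG8292 (1.79), CG14273 (1.76), CG18823 (1.73) and CG15818 (1.71) followed on the log2 scale. CG5568 read 163, 192 and 169 in S2-NFull/S2 and 8.92, 6.83 and 18.3 in S2/S2. CG12493 read 808, 661 and 663 against 127, 197 and 133. In both genes the lowest S2-NFull/S2 array lay well above the highest control. CG8349 read 198, 245 and 186 against 31.6, 49.8 and 21.8. CG8292 read 519.7, 543 and 530.3 against 146, 161 and 92.3, with S2-NFull/S2 arrays that lay close together.

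The brightest of these probe sets, that of CG14273, read 2341, 2114 and 1913 in S2-NFull/S2 and 661, 578 and 525 in S2/S2, with no overlap. CG18823 read 577, 476 and 471 against 165, 141 and 86.1. In CG12926, replicate 3 read 90.5 and the arrays of replicate 1 read 168 and 172, all above the highest control of 16.1. Without S2-NFull/S2 replicate 1, CG12926, CG15818 and CG18823 no longer passed, with adjusted p of 0.17, 0.0739 and 0.0739, and changes of 1.47, 1.56 and 1.66.

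**Figure D2:**
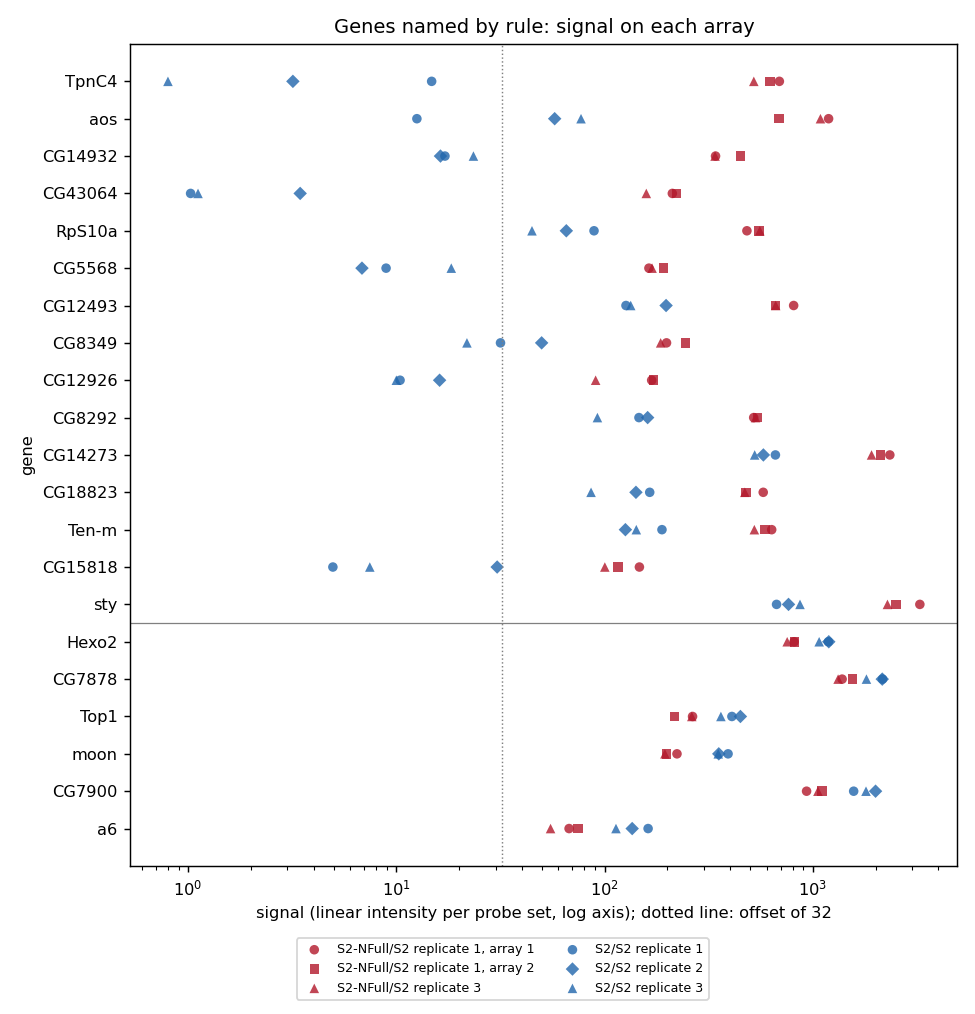
Signal of the 15 largest rises and 6 largest falls named by rule, one point per array on a log axis, with S2-NFull/S2 in red and S2/S2 in blue and the offset of 32 dotted. In every gene shown the red and blue points do not overlap, and in TpnC4, CG14932, CG43064, CG5568, CG12926 and CG15818 all 3 blue points lie below the offset.

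Of the 14 measured genes of the E(spl) complex and the Bearded family, 3 rose and none fell. Over all probe sets 0.565% were called higher and 0.0533% lower. E(spl)mgamma-HLH and E(spl)m8-HLH were among the 16 listed but had no probe set paired with them alone. E(spl)m3-HLH, a basic helix-loop-helix repressor, read 625, 771 and 686 in S2-NFull/S2 and 129, 265 and 244 in S2/S2. Its lowest array was above its highest control, and it rose by 1.61 ± 0.21 (SE; adjusted p = 0.00142). In a fit on the compared mixes only, its adjusted p was 0.0589. E(spl)mbeta-HLH, another repressor of this kind, read 768, 661 and 703 against 301, 294 and 291. It rose by 1.18 ± 0.12 (adjusted p = 0.000129), and the arrays of both mixes did not overlap.

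E(spl)malpha-BFM, a small Bearded-family protein that in flies hinders the ubiquitin ligase Neuralized, read 105, 147 and 112 against 39.7, 37.4 and 66.8, a rise of 0.93 ± 0.19 (adjusted p = 0.0462). This call was near the threshold and was lost in 7 of 16 other settings. E(spl)m2-BFM read 58.5, 64.0 and 35.8 against 20.9, 38.5 and 29.9, overlapped the controls, and did not pass (0.37, adjusted p = 0.654). The other 10 had mean signals under 32 in both mixes and did not pass, and at such signals the offset makes changes small on the log2 scale. The median change over the 14 was -0.01.

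On the other lists of the Notch pathway 1 gene passed. None of 13 measured genes known as Notch targets in other tissues passed, and 11 of the 13 had mean signals under the offset in both mixes. Of 20 measured pathway components, Delta alone passed, as a fall of 0.72 ± 0.15 on the log2 scale (adjusted p = 0.0483). Its signals of 3.35 to 18.4 lay below those of S2/S2, 41.3, 40.1 and 20.4, and all but 2 of these 6 values were under the offset. The second probe set of Delta did not pass (-0.06, adjusted p = 0.927), and the first lost its call in 9 of 16 other settings.

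Among 12 measured genes of the JNK pathway and wound response, bsk, which encodes the kinase JNK, passed with 1509.7, 1671 and 1438 against 962, 1102 and 977 (0.56 ± 0.11, adjusted p = 0.0255). The arrays of both mixes did not overlap, but 2 other probe sets of bsk did not pass (0.45 and 0.38). Without S2-NFull/S2 replicate 1, without its replicate 3 and without S2/S2 replicate 3 the adjusted p was 0.412, 0.121 and 0.0585.

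No gene passed among 9 immune effectors, 17 genes of the Toll and Imd pathways, 5 of JAK/STAT, 6 heat shock genes and 10 genes of metal handling. With 0.618% of all probe sets called, lists of such a size most often hold no call. DptB, an antimicrobial peptide, read 20.6 and 18.4 on the arrays of replicate 1 and 89.7 in replicate 3, against 2.80 to 6.29 in S2/S2. The arrays did not overlap, but the change of 1.10 did not pass (adjusted p = 0.119). None of 25 proteasome genes, 12 genes of the cell cycle and replication, 12 of the extracellular matrix and 9 of glycolysis passed, and the glycolysis list had a median of -0.34 with 1 of 9 changes above 0.

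Among the markers of other cell types, none of 12 plasmatocyte, 9 crystal cell and lamellocyte, 8 neuron and 7 glia markers passed. The share over all probe sets was 0.618%. The summed signal of the plasmatocyte list was 4700 to 5068 in S2-NFull/S2 and 3532 to 4455 in S2/S2, so these sums did not overlap. The members went apart: 8 of the 12 changes were above 0, and they ran from -0.79 to 0.91. The largest was that of RhoL, with mean signals of 992 and 542, and it did not pass. The median signal of a member was 162 in S2-NFull/S2 and 218 in S2/S2. The part of this list in the results was not tested. Of 11 epidermal markers, 2 had a change above 0, the median change was -0.11, and only ovo passed. It encodes a zinc finger factor of the female germline and of epidermal hairs, and read 132, 146 and 141 against 33.4, 19.9 and 34.6 (1.5 ± 0.18, adjusted p = 0.000765, and 0.0868 in a fit on the compared mixes only).

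The falls were smaller than the rises, but the plain cells in S2-NFull/S2 limit how far a signal can fall. CG7900, a gene named by number only, had signals of 933, 1105 and 1057 in S2-NFull/S2 and 1569.7, 1999.5 and 1799 in S2/S2. The highest S2-NFull/S2 array was below the lowest control, and the fall was 0.76 ± 0.13 on the log2 scale (adjusted p = 0.0101). For moon, which encodes moonshiner, a factor of piRNA cluster transcription in the fly germline, signals were 223, 199 and 195 against 391, 353 and 351, and the log2 change was -0.76 ± 0.12 (adjusted p = 0.00537).

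Top1, which encodes topoisomerase I, read 264, 216 and 262 against 408, 449 and 362 (-0.63, adjusted p = 0.0462). Hexo2, a hexosaminidase, read 812, 815 and 753 against 1187, 1192 and 1072 (-0.54, adjusted p = 0.0485). CG7878 read 1382, 1553 and 1322 against 2161, 2153 and 1808 (-0.54, adjusted p = 0.0335). In all 3 the S2-NFull/S2 arrays were below every control. The gene a6 read 67.5, 74.6 and 55.0 against 162, 136 and 113 (-0.83, adjusted p = 0.0408). None of these 6 genes or Delta kept its call when each sample was left out in turn: without S2-NFull/S2 replicate 1 their adjusted p ran from 0.0739 (moon) to 0.451 (Top1), and without its replicate 3 from 0.110 (CG7900) to 0.568 (Delta). Of the 20 higher named genes, 15 kept theirs.

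Over all probe sets, the calls fell to 34 higher and 0 lower without S2-NFull/S2 replicate 1, and to 55 higher and 1 lower without replicate 3. Of the 34, 32 were among the 106, and all 55 were. Either fit leaves 1 S2-NFull/S2 sample, which is assumed to vary like the other mixes, since the spread within S2-NFull/S2 is not measured there.

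The same contrast of populations was measured in arrays that the first comparison did not use, beside cells with Delta. S2-NFull/S2-Dl was set against S2/S2-Dl and S2-NFull/S2-DlDI against S2/S2-DlDI, and both differences were averaged, over 2 samples with NFull cells and 5 without. The model and its estimate of spread were shared with the first comparison, and each of the mixes with NFull and Delta cells had 1 sample and no spread of its own. There 294 probe sets passed (1.57%), of which 180 (0.959%) were higher with NFull cells and 114 (0.607%) lower.

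All 106 probe sets that rose beside S2 cells had a positive change in these other mixes, with a median of 0.91. Over all probe sets the median there was 0.01, so a positive sign alone is common. Of the 106, 87 also passed there, which is 82.1% of the first list and 48.3% of the second. Of the 10 falls, 9 had a negative change and 7 passed, which is 70.0% of the first list and 6.14% of the second. Rises in these other mixes were 2.86 for TpnC4, 2.39 for aos, 2.54 for RpS10a, 2.56 for CG14932, 1.33 for Ten-m and 1.07 for sty.

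The 3 E(spl) genes rose there too, with log2 changes of 2.04 for E(spl)m3-HLH, 1.53 for E(spl)mbeta-HLH and 1.15 for E(spl)malpha-BFM, and E(spl)m2-BFM passed with 1.28 (adjusted p = 0.00338). The difference between both effects was tested for every gene. It was 0.44 for E(spl)m3-HLH in favour of the mixes with Delta lines, with a 95% interval of the change beside S2 cells minus the other from -1.06 to 0.188, and did not pass. For E(spl)mbeta-HLH the interval was -0.712 to -0.00123, and for aos 0.363 to 2.38, and these did not pass after adjustment either.

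One probe set (0.00533%) passed the test of the difference, that of CG7900, and 762 had an unadjusted p below 0.05. Beside S2 cells CG7900 fell by 0.76, and beside the Delta lines by 3.29 ± 0.12 (SE) on the log2 scale. Its signals were 867, 1123 and 970.1 in S2/S2-Dl and 17.3 in the single S2-NFull/S2-Dl sample, and 1284 and 1189 in S2/S2-DlDI against 241 in the single S2-NFull/S2-DlDI sample. The difference was 2.53 (95% interval 2.15 to 2.90, adjusted p = 1.11e-05). The difference rests on those single samples. RNA of the partner cells is part of each signal, and CG7900 was itself lower in S2/S2-Dl than in S2/S2. A changed effect of the NFull cells and a changed share from the partner cells cannot be told apart.

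**Figure D3:**
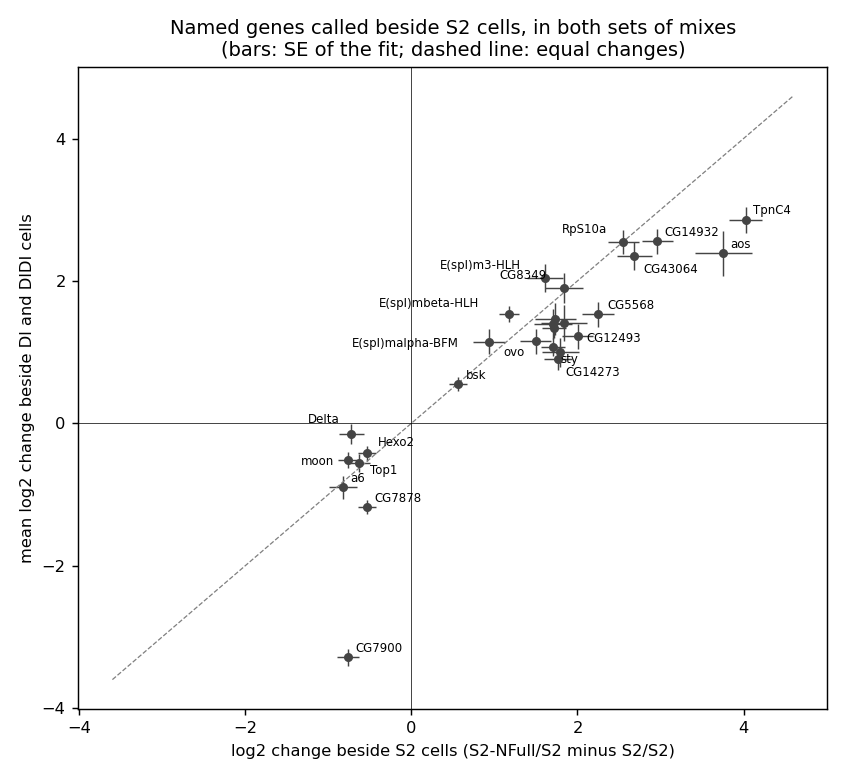
Log2 change of the 27 named genes called beside S2 cells (horizontal axis) against the mean log2 change of the same genes beside Dl and DlDI cells (vertical axis), with bars for the SE of the fit and a dashed line of equal changes; 5 crowded points carry no name. All 20 rises lie in the upper right, TpnC4 and aos lie below the line, and CG7900 lies far below it with -0.76 and -3.29.

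Set over all mixes, the 4 samples with NFull cells could be compared with the 12 without. For 10 of the 15 largest rises (TpnC4, aos, CG14932, CG43064, RpS10a, CG8349, CG8292, CG18823, CG15818 and sty) every sample with NFull was above every sample without. The same held for 54 of the 106 higher probe sets and for 205 of all 18769 (1.09%). Since the S2-NFull/S2 and S2/S2 samples that chose the list are among the 16, these counts are a description.

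Signals of aos ran from 666 to 1087 with NFull and from 12.5 to 167 without. Signals of TpnC4 ran from 520.4 to 1162 with NFull, but it also read 408, 464 and 294 in S2/S2-Dl, whereas 3.18 was the middle value in S2/S2. Its level in a plain mix with Dl cells was therefore closer to that of the NFull mixes than to S2/S2. The other 5 of the 15 overlapped. Ten-m read 929, 1019 and 815 in S2/S2-Dl, above S2-NFull/S2, and CG12493 read 1999, 2178 and 1668 there, against 735 and 663 in the S2-NFull/S2 samples. For ovo, S2/S2-Dl read 154, 130.2 and 184, a range that includes the S2-NFull/S2 samples. Also above S2/S2 in that mix were sty (1408, 1703 and 1720), CG14273 (2550, 2336 and 1681), CG8292 (415, 461 and 308) and CG5568 (200, 194 and 140). RpS10a, at 71.0, 63.0 and 49.8, stayed within the range of S2/S2, and aos, at 46.8, 90.6 and 109, overlapped it.

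**Figure D4:**
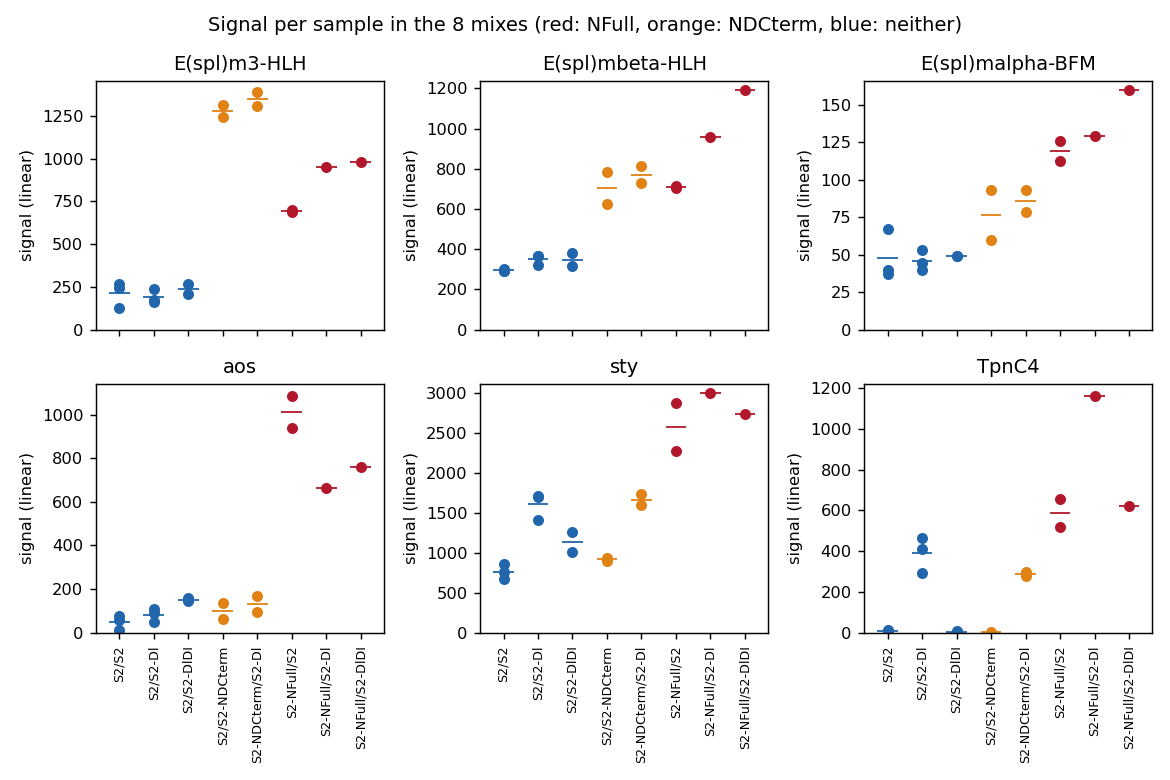
Signal per sample (points) and mean (lines) of 6 genes in the 8 mixes, on linear axes that start at 0, with S2-NFull/S2 replicate 1 as the mean of its arrays. The 4 samples with NFull (red) lie above all others for aos, sty, TpnC4 and E(spl)malpha-BFM, the mixes with NDCterm (orange) lie highest for E(spl)m3-HLH, and TpnC4 reads 294 to 464 in S2/S2-Dl.

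S2-NFull/S2 was also compared with S2/S2-NDCterm, 2 samples against 2, to ask how both Notch lines differ beside plain cells. In limma 127 probe sets passed (0.677%), of which 76 (0.405%) were higher with NFull and 51 (0.272%) lower. The largest differences upwards among the genes named by rule were TpnC4 (4.20 ± 0.22, SE), RpS10a (3.26), aos (3.02), CG14932 (2.57) and CG8349 (2.47). Signals of aos in S2/S2-NDCterm were 135 and 63.5 and those of TpnC4 were 0.63 and 2.46, so the S2-NFull/S2 samples were above both in each gene. The gene sty was higher with NFull by 1.44 ± 0.16 (adjusted p = 0.000341).

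The called E(spl) genes differed among themselves in this comparison, and none of the 3 passed. E(spl)m3-HLH read 1314 and 1240.5 in S2/S2-NDCterm against 698 and 686 in the S2-NFull/S2 samples, and the 4 samples did not overlap. The difference of -0.86 ± 0.23 did not pass (adjusted p = 0.157, 95% interval -1.36 to -0.357). E(spl)mbeta-HLH read 786 and 626 against 715 and 703, with a difference of 0.01 and a 95% interval of -0.274 to 0.298. E(spl)malpha-BFM read 93.0 and 59.7 against 126 and 112, a difference of 0.49 with an interval of 0.0361 to 0.945 (adjusted p = 0.512). Kaz-m1, the Kazal-type gene of the E(spl) complex, was lower with NFull by the fit (-0.996, adjusted p = 0.0259), with 34.1 and 42.4 in S2/S2-NDCterm and a mean of 3.22 in S2-NFull/S2. The largest downwards under the same rule were CG15695 (-2.30), CG4927 (-1.93), CG42565 (-1.84), CG14629 (-1.55) and CG4259 (-1.52).

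The arrays of S2-NFull/S2 replicate 1 were not alike in all genes. Among the brighter probe sets the SD of their log2 difference was 0.339, against 0.360 and 0.277 between replicate 3 and array 1 and array 2. The pair did not meet the limit by which other pairs with a shared title were kept or left out, 0.213. The arrays differed from each other about as much as from the separate replicate. Of 5683 probe sets with a signal of at least 100 on either array, 56 were more than 1 log2 unit higher on array 1 and 17 on array 2. One of the 116 called probe sets was more than 1 unit apart between them.

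The 5 genes named by rule as higher on array 1 were also highest in S2/S2 replicate 1 among the controls. Cyp28d1, a cytochrome P450, read 458 on array 1 and 845 in S2/S2 replicate 1, and 62 or less on the other 4 arrays. GstE9, a glutathione transferase, read 1507 and 2452, and Pepck1, which encodes an enzyme of gluconeogenesis, 1129 and 2302, and each was the highest pair among the 6 arrays. Outside these arrays, Cyp28d1, GstE9 and Pepck1 read 494, 1507 and 1347 in S2/S2-Dl replicate 1. In S2/S2-NDCterm replicate 1 they read 28.1, 135 and 220. Of the genes high on array 2, the odorant-binding protein gene Obp44a read 365 there and 497 in S2/S2 replicate 2, against 2.39 to 42.1 on the other 4. Ama, Col4a1 and pirk, also high on array 2, were likewise highest in S2/S2 replicate 2 among the controls. The remaining gene, bin3, read 349 on array 2, but 186 in S2/S2 replicate 2 and 231 in S2/S2 replicate 3. None of the genes named here passed in the comparison of the mixes.

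**Figure D5:**
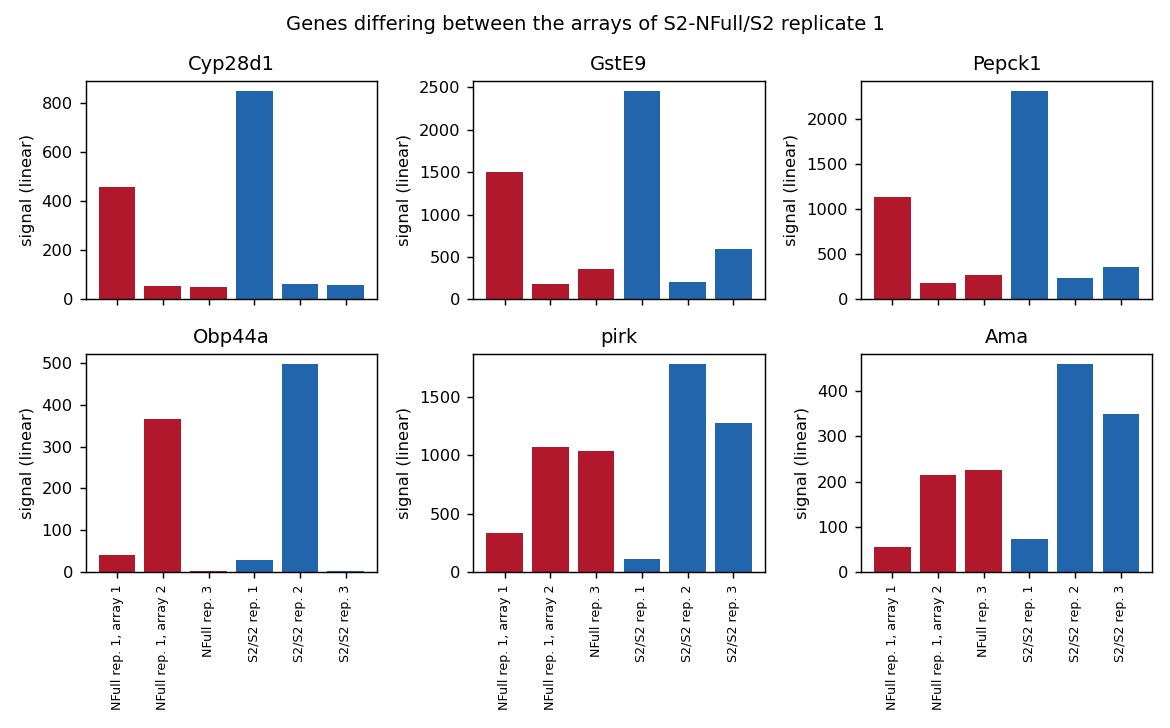
Signal (linear axis from 0) of 6 genes that differed between the arrays of S2-NFull/S2 replicate 1, one bar per array, red for S2-NFull/S2 and blue for S2/S2. For Cyp28d1, GstE9 and Pepck1 the bars of array 1 and S2/S2 replicate 1 are the tallest, and for Obp44a those of array 2 and S2/S2 replicate 2.

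A few probe sets fell outside the rule for naming and were picked after their values were seen. The largest rise of all was that of a probe set paired with no gene, with 3438, 2896 and 2242 in S2-NFull/S2 and 149, 87.2 and 130.4 in S2/S2 (4.15 ± 0.17, adjusted p = 6.76e-09). Its change beside the Delta lines was also 4.15. Imp, which encodes an mRNA-binding protein, had 4 probe sets that went apart. One read 666, 552 and 402 against 0.90, 1.70 and 0.40 (3.99 ± 0.18, adjusted p = 1.03e-08) and another rose by 2.17, whereas the brightest read 947, 626 and 653 against 1053, 666 and 749.6 and did not pass (-0.18).

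Nf1, which encodes neurofibromin, an activator of the GTPase activity of Ras, showed the same kind of split. One of its 3 probe sets read 131, 130.5 and 127 against 12.9, 17.7 and 9.85 (1.82 ± 0.20, adjusted p = 0.000232), while the brightest read 177, 223 and 240.4 against 237, 146 and 272 and overlapped the controls. In both genes the result thus differed with the probe set. The largest called fall, in CG6891, was outside the rule too, since another probe set stood for the gene. It read 632, 322 and 632 against 989, 839 and 1128 (-0.83 ± 0.16, adjusted p = 0.0239). The brightest probe set of CG6891 changed by -0.67 and did not pass (adjusted p = 0.0637). Beside the Delta lines the 2 probe sets changed by -1.45 and -1.39.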

How the data were processed

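Each array came as a table with 1 signal per probe set, which the authors deposited as a linear intensity, and no software for it is named (not given in the sources used here). Members and gene lists were chosen with earlier results of these data known. Values were turned into log2(signal + 32). Of 18952 probe sets, 183 were AFFX controls and the other 18769 entered the tests unfiltered. The table of probe sets named 1 gene for 13647 of them, several for 402 and none for 4720, and the files name no genome build, so no positions are given.

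Both arrays of S2-NFull/S2 replicate 1 were averaged whatever their difference, and they would not have met the limit set for the others (SD 0.339). Another pair of arrays with a shared title was averaged if it differed no more than the closest separate replicates did, which S2-NFull/S2-DlDI replicate 2 did (SD of the log2 difference 0.126, with 0.213 to 0.486 in 9 reference pairs), and was otherwise left out. One model in limma 3.58.1 (R 4.3.3) covered 16 samples in 8 mixes, with a mean trend in eBayes, 8 residual and 6.39 prior degrees of freedom, and Benjamini-Hochberg adjustment over all probe sets of a contrast. The number of arrays limits the precision.

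Genes were named by a rule: the 15 largest rises and up to 10 largest falls among called probe sets of 1 gene with a mean signal of at least 100 in the higher mix and arrays that did not overlap (6 falls qualified), the E(spl) and Bearded genes, called members of the lists, genes named earlier, the 5 largest called differences from S2/S2-NDCterm in each direction, the 5 smallest p of the partner difference, and the 5 largest differences in each direction between the arrays of replicate 1. A gene with several probe sets was represented by the brightest. The procedure was tested on simulated data. Alternatives were a low-value filter, quantile scaling, a lower offset of 8 and a higher one, a spread without trend, other treatments of the arrays with a shared title, the replicate number as a block, a fit on 2 mixes and each sample left out.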

Additional observations from a re-analysis of the deposited data

Results flagged for a closer look

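CG7900 differed between groups: the effect of NFull cells on it beside S2 cells was 2.53 log2 units above that beside Dl and DlDI cells in the test of the difference, since it fell by 0.76 in the first and by 3.29 in the second. The second value rests on 1 sample with a signal of 17.3 in S2-NFull/S2-Dl and 1 with 241 in S2-NFull/S2-DlDI. Each sample held RNA of both populations, so the partner cells' own level of CG7900 enters both values. Its part in the difference was not tested.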

How the results depend on the processing

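The first comparison gave 106 calls higher and 10 lower, the mean effect beside Dl and DlDI cells 294, the test of the difference 1 and the comparison with S2/S2-NDCterm 127. The higher calls were 200 with the arrays of replicate 1 as 2 samples and 24 in a fit on the compared mixes only. All 24 were among the 106, and that fit has fewer samples for its spread. The comparison with S2/S2-NDCterm gave 105 calls in a fit on its own mixes only. Between S2/S2 replicates the SD of the log2 difference was 0.397 to 0.486, the highest among the reference pairs. Whether this spread accounts for the drop to 24 was not tested. The lower calls were 6 with the higher offset, 25 with the filter on low values, 47 with the arrays as 2 samples, 23 with all pairs of shared title averaged and 0 in the fit on the compared mixes only. Calls against S2/S2-NDCterm were 200 with the filter and 247 with the arrays as 2 samples. Calls beside the Delta lines were 444 with the filter and 969 with all pairs averaged, and those of the difference were 3 with the lower offset. The filter tests fewer probe sets; for the other settings the cause was not tested. With the replicate number as a block the calls were 243 higher, 89 lower, 369 against S2/S2-NDCterm, 533 beside the Delta lines and 3 of the difference. S2-NFull/S2 and S2/S2 share 2 numbers only. Residuals of the same number went together, with correlations of 0.466 and 0.578, against -0.578 and -0.466 for crossed numbers. The crossed values follow from the others, since residuals cancel within a mix. The labels do not say what a shared number stands for, so pairing is not established and the main fit does not use it. Leaving out each sample in turn gave 34 to 129 higher, 0 to 30 lower, 25 to 50 against S2/S2-NDCterm, 139 to 260 beside the Delta lines and 1 to 1 of the difference. The lowest counts were those without S2-NFull/S2 replicate 1, without S2/S2-DlDI replicate 3 for the Delta lines. Of the 20 named rises, 13 kept their call in all 16 settings, and of the 7 named falls none did; no named call changed its sign. The single samples with both NFull and Delta cells could not be left out, and a fit on the compared mixes only was not run for them. Leaving out an S2-NFull/S2 sample leaves 1, which is assumed to vary like the other mixes. Signals under the offset of 32 give small log2 changes, as in most E(spl) genes.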

Other observations

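Single rises outside the rule are given here, picked after their values were seen, and they stand for no group: of the lists, 0 of 9 germline markers and 1 of 12 actin and adhesion genes, Ten-m, passed. The genes mael, which encodes maelstrom of the piRNA pathway, and tut rose by 0.73 and 0.94, with signals of 223, 212 and 222 against 127, 119 and 115 for mael and of 193, 138 and 135 against 55.6, 69.3 and 62.5 for tut. Poxn, a paired-box factor of sense organs, read 87.8, 85.9 and 58.6 against 8.90, 3.10 and 11.2 (1.39, adjusted p = 0.000765). The genes tmod, which encodes tropomodulin, and Arpc3B, a subunit of the Arp2/3 complex, rose by 0.77 and 1.64, and Clic, which encodes a chloride intracellular channel protein, rose by 1.02, with 1597, 1817 and 1545 against 759, 804 and 786. All 3 S2-NFull/S2 arrays were above all 3 controls in each of these genes, as in all 106 higher calls. The same held for 1011 of all 18769 probe sets (5.39%), so it adds nothing to the calls.

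Deviations from the mean of a mix, over 9384 probe sets, correlated between array 1 of S2-NFull/S2 replicate 1 and S2/S2 replicates 1, 2 and 3 with 0.589, -0.277 and -0.413. For array 2 the values were -0.246, 0.361 and -0.0999, and for replicate 3 they were -0.466, -0.00725 and 0.578. These are descriptions across probe sets, deviations cancel within a mix, and array 2 was thus nearest to S2/S2 replicate 2 although its title gives replicate 1. Low values on array 1 and in S2/S2 replicate 1 matched as well: pirk, a regulator of the Imd pathway, read 335 and 109.8 on these and 1042 to 1782 on the other 4 arrays.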
